A study of Mus musculus with 4 samples.

Results

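The circular RNAs (circRNAs) of 7 genes of the PI3K, mTOR and FoxO pathway were examined in primary mouse articular chondrocytes, the cells of joint cartilage. The genes were Pik3r1, Pik3c3, Tsc1, Tsc2, Mtor, Rptor and Foxo1, and a circRNA was counted to a gene when both ends of its back-splice junction lay inside the gene's RefSeq span in mm10, with 1 bp allowed. This gave 72 of the 40909 circRNAs listed, and 8227 of the 4278181 junction reads. All 72 lay on 1 strand within their gene, none lay inside several coding genes, and 0 further circRNAs crossed a boundary of these genes. The IL-1β group was 2 libraries of cells given recombinant human IL-1β, a cytokine of joint inflammation that serves as a culture model of osteoarthritis, at 10 ng/ml for 24 h. The control group was 2 libraries of chondrocytes with no IL-1β in their source label. Both groups were passage 1-3 cells thawed and plated in serum-containing medium, and separate animals or cultures are not stated for libraries of 1 group. P-values therefore cover no more than the spread among these libraries, possibly a technical one. Strain, age and sex were not stated either.

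A circRNA is a closed loop made when the downstream end of an exon is spliced back to an upstream one, and only reads across that junction count it. Each circle has 1 such junction whatever its length, and levels are given as junction reads or as CPM, junction reads scaled to a common library size. Linear RNA was removed with RNase R before sequencing, so the values say nothing of the mRNA of these genes. In this pathway, class I PI3K makes a membrane lipid that recruits the kinase AKT. AKT switches off the TSC1-TSC2 complex, a brake on the kinase complex mTORC1, and also keeps FoxO transcription factors out of the nucleus. Active mTORC1 promotes protein synthesis and restrains autophagy, and in cartilage FoxO factors and autophagy are known for their part in keeping chondrocytes alive in ageing and osteoarthritic joints.

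Depth was 895774 and 980542 junction reads under IL-1β and 1198010 and 1203855 in control. Values of 1 read were nearly missing, with 7 in the whole table against 2422 values of 2 reads, so a listed 0 may stand for 1 read. Of 14 chondrocyte markers 4 had any circle, mainly Sox5 and Sox6, and their summed level was 265 and 320.5 CPM under IL-1β against 402 and 239 CPM in control. The defining markers Acan, Col2a1 and Sox9 had no circle, and since an expressed gene need not make circles, these data cannot check the cell type label. Of the markers listed for other cells, 5 of 7 fibroblast markers had circles, at 87.3 and 65.7 CPM under IL-1β against 141 and 206 CPM in control. Of 5 osteoblast markers only Runx2 did, at 366.5 and 364 CPM under IL-1β against 267.5 and 438 CPM in control. Bglap, Alpl, Sp7 and Ibsp had no circle, so the osteoblast sum is that of 1 gene. Macrophage or leukocyte, endothelial, skeletal muscle and adipocyte markers summed to at most 12.5 CPM per list in any library. Summed circles of the fibroblast markers were lower with IL-1β. The cells they came from are not known, and their part in the results was not tested.

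Pik3r1 stood apart from the other members in level and in having a second start listed. It encodes p85α, the regulatory subunit of class I PI3K, and is known to give shorter subunits, p55α and p50α, from internal starts. RefSeq lists a pair of starts for it, and all 7 of its circles lay between them: downstream of the first (position 101768217 on chromosome 13, minus strand) by at least 10178 bp, and upstream of the second (position 101692630) by at least 8817 bp. Every Pik3r1 circle found thus lay in the stretch that precedes the second listed start. That start lies 75587 bp into a gene of 87.5 kb, so most of the gene precedes it. Tsc1, Tsc2, Mtor, Rptor and Foxo1 had a single start listed and Pik3c3 had none, so no other member could be compared. The placing of the circles was not tested. The 250 bases before each start are shown 5′ to 3′ on the minus strand, from RefSeq on GRCm38.p6 (mm10), because the circles separate these starts. Capitals mark GC boxes (GGGCGG) and TATA boxes (TATAAA), searched on both strands.
Upstream start, chr13:101768218-101768467: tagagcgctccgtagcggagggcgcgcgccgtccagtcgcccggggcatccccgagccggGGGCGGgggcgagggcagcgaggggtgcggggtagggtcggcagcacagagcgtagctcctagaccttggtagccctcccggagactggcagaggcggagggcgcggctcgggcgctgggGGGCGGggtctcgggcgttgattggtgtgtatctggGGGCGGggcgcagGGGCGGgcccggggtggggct
Downstream start, chr13:101692631-101692880: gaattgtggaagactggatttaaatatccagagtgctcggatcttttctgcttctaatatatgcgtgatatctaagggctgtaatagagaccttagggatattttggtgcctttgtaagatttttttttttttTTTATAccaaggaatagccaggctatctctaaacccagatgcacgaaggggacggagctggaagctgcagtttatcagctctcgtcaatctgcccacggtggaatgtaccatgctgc

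The first window is GC-rich, at 76.4% G and C with 30 CpG and 4 GC boxes, and holds no TATA box. The second has 42.4% G and C, 6 CpG, no GC box and 1 TATA box, which lies on the reverse strand of the text shown. Over all 32851 listed windows of this length the median was 52.4% G and C with 6 CpG, 32.7% held a GC box and 12.4% a TATA box. A FoxO site (GTAAACA, either strand) was in neither Pik3r1 window and in none of the 5 windows of Tsc1, Tsc2, Mtor, Rptor and Foxo1, against 3.17% of all windows. These are matches of letters only, and no binding was measured.

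One short circle made up nearly all of the Pik3r1 signal. This circle, circRNA.6852 (chromosome 13, 101757326 to 101758039), spans 714 nt and carried 93.5% of the gene's reads, the 75th most reads of all circRNAs listed. Of 2589 host genes with at least 5 circles, 98.3% had a lower share in their leading circle, and the median share was 45.7%. It had 1129 and 1371 reads under IL-1β against 1432 and 2070 in control. That is 1241 and 1405 CPM under IL-1β against 1226 and 1694 CPM in control, so the groups overlapped, with control 2 the highest library. The log2 change was -0.14 ± 0.24 (SE; adjusted p = 1.0, edgeR quasi-likelihood test), and without control 2 it was 0.11.

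Its upstream end, position 101758039, was shared by 4 of the 7 circles and by 96.5% of the gene's reads. From that end, circRNA.6850 closed 1603 nt downstream with 22 and 24 reads under IL-1β against 30 and 27 in control, and its levels overlapped. The same end was joined over a long distance to the second group of junctions, which lies 58475 to 66770 bp from the gene start, by circRNA.6849 (49120 nt) and circRNA.6847 (56593 nt). CircRNA.6849 had 16 and 0 reads under IL-1β against 8 and 44 in control. CircRNA.6847 had 13 reads in each IL-1β library and 0 in both controls. By the IL-1β mean it was at least 5.50-fold higher against a floor of 3 reads per library. Its downstream end is also that of circRNA.6846, which had 49 and 4 reads under IL-1β against 78 and 84 in control. That is 53.9 and 4.10 CPM under IL-1β against 66.8 and 68.8 CPM in control, without overlap, and IL-1β 2 was the lowest by far. Neither passed the test, with adjusted p = 0.886 for circRNA.6847 and 0.975 for circRNA.6846 in edgeR.

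**Figure D1:**
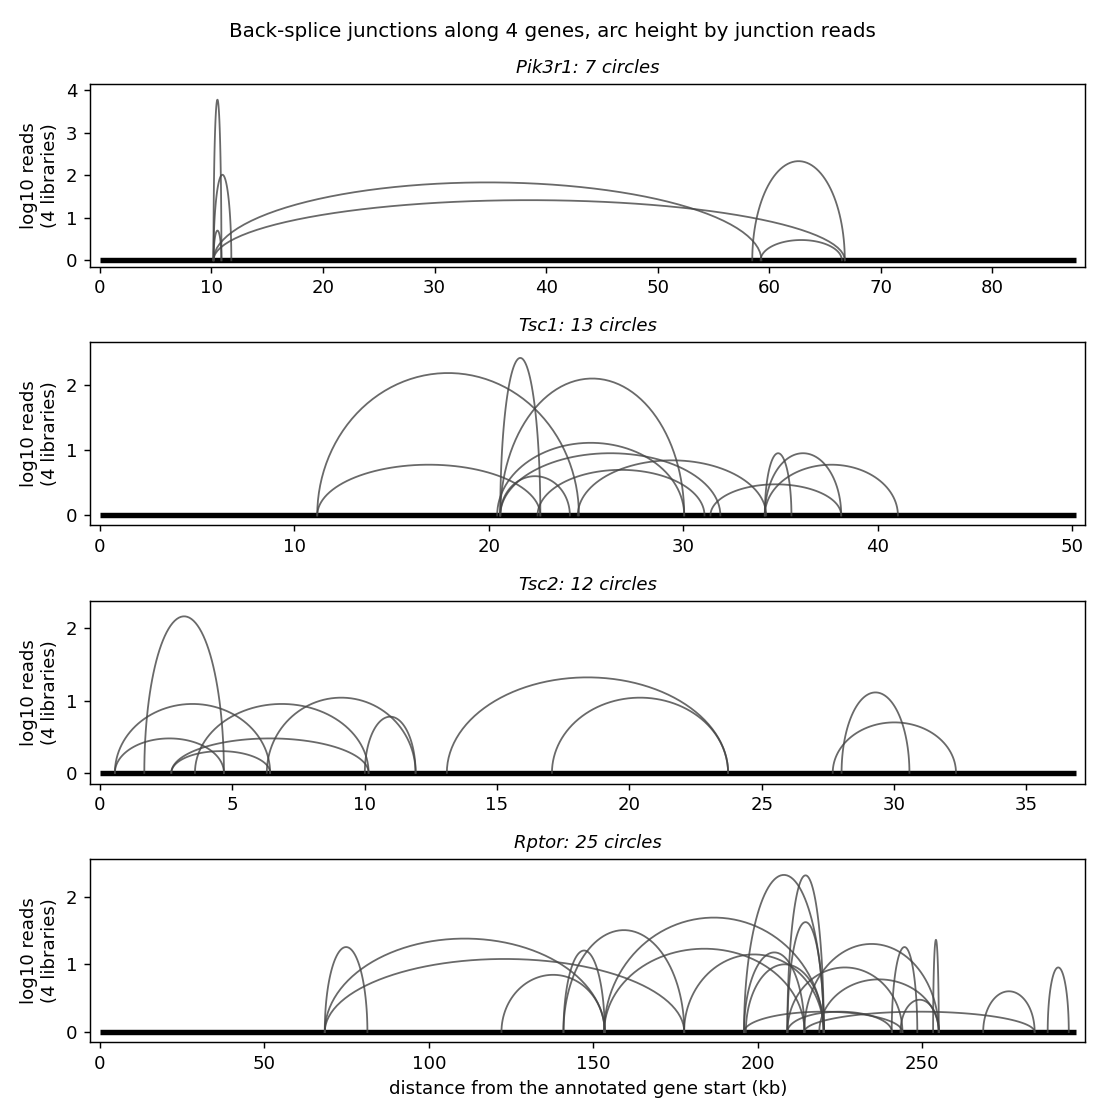
Circles of Pik3r1, Tsc1, Tsc2 and Rptor, drawn as arcs between the 2 ends of each junction; the x axis is the distance from the annotated gene start in kb, with the gene as a black bar, and arc height is log10 of the reads over 4 libraries. The tallest Pik3r1 arc is the 714 nt circle, and arcs of Rptor, which has 25 circles, meet at shared ends.

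Summed over its circles, Pik3r1 came to 1344 and 1428 CPM under IL-1β against 1294 and 1910 CPM in control. The means were 1386 ± 59.4 CPM under IL-1β against 1602 ± 435 CPM in control (SD, n = 2 each). In these whole-culture samples fewer cells of a type and fewer circles per cell cannot be told apart. The groups overlapped, and the log2 change of -0.21 ± 0.22 (SE) did not pass edgeR's test (adjusted p = 0.9997). Without control 2 the log2 change was 0.10, so its direction rests on that library. Among all hosts Pik3r1 ranked 103rd by reads.

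Pik3c3, which encodes Vps34, the class III PI3K that starts autophagosome formation, was close to the limit of detection. Its 7 circles together had 45 and 8 reads under IL-1β against 20 and 7 in control, and 5 of the 7 were read in 1 library only. The leading circle, circRNA.14986 (chromosome 18, 30298573 to 30305042), had 28 and 0 reads under IL-1β against 13 and 0 in control, present in the first library of each group and missing from the second. Its downstream end was shared by 3 circles that held 67.5% of the gene's reads. Of the other circles named, circRNA.14983 had 8 and 4 reads under IL-1β against 0 in control, and circRNA.14985 had 9 reads in IL-1β 1 only. Gene output was 49.1 and 8.09 CPM under IL-1β against 16.7 and 6.00 CPM in control, a log2 change of 1.32 ± 1.33 (SE; adjusted p = 0.9997, edgeR), and without IL-1β 1 it was -0.48.

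Tsc1 and Tsc2 encode hamartin and tuberin, which together hold the GTPase Rheb, the activator of mTORC1, in its inactive form. Tsc1 gave 13 circles, 3 of them read in all 4 libraries and the other 10 in 1 library only. The 3 held 88.4% of its reads. CircRNA.22682 (chromosome 2, 28661582 to 28663644, 2063 nt) had 62 and 41 reads under IL-1β against 36 and 122 in control, and circRNA.22680 (28652169 to 28665629) had 41 and 13 under IL-1β against 20 and 79 in control. Both were highest in control 2, the IL-1β libraries lay within the control range or below it, and each log2 change turned positive without control 2 (0.83 and 0.76). CircRNA.22684 (28661582 to 28671044) had 16 and 18 reads under IL-1β against 56 and 36 in control. Its groups did not overlap, at 17.6 and 18.5 CPM against 47.9 and 29.5 CPM, and its log2 change was -1.10 ± 0.78 (SE; adjusted p = 0.886, edgeR).

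The upstream end at 28661582 was used by 4 Tsc1 circles with 65.5% of the gene's reads, closing at 4 different downstream ends. It had 82 and 59 reads under IL-1β against 101 and 158 in control. Scaled for depth that is 90.1 and 60.5 CPM under IL-1β against 86.5 and 129 CPM in control, with overlap. For the whole gene the level was 144 and 77.9 CPM under IL-1β against 109 and 233 CPM in control, with overlap. The log2 change was -0.62 ± 0.48 (SE; adjusted p = 0.955, edgeR) and became 0.03 without control 2.

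Tsc2 was the member with lower output in both IL-1β libraries than in both controls. It had 27 and 44 reads under IL-1β against 82 and 87 in control. That is 29.5 and 44.5 CPM under IL-1β against 68.5 and 74.5 CPM in control, means of 37.0 ± 10.6 and 71.5 ± 4.22 CPM (SD, n = 2 each). The log2 change was -0.95 ± 0.55 (SE) and did not pass (unadjusted 0.123, adjusted p = 0.882, edgeR), with -1.27 to -0.68 when 1 library was left out. Both IL-1β libraries lay below both controls in 18.9% of the 4879 hosts tested, so 1 such gene among 7 is near the background.

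Of the 12 Tsc2 circles only circRNA.12820 (chromosome 17, 24627991 to 24630999, 3009 nt) was read in all 4 libraries. It held 61.3% of the reads, with 24 and 21 under IL-1β against 48 and 54 in control. Its levels were 26.4 and 21.5 CPM against 41.1 and 44.2 CPM, a log2 change of -0.83 ± 0.67 (SE; adjusted p = 0.947, edgeR). The next circles were each read in control 1 only, circRNA.12813 with 21 reads and circRNA.12811 with 13. The remaining reads came from circles of at most 11 reads in a library, and 10 of the 12 circles were read in a single library.

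Mtor, which encodes the kinase at the core of mTORC1 and mTORC2, gave 6 circles and 63 reads over a gene of 109 kb. None of them reached the 20 reads needed for a test, and the 6 circles shared no end. The leading one, circRNA.26895 (chromosome 4, 148538463 to 148540115), had 19 reads in IL-1β 2 and 0 in the other libraries. CircRNA.26890 had 0 and 2 reads under IL-1β against 11 and 0 in control, and circRNA.26892 had 9 reads in control 1 only. Output was 16.4 and 21.2 CPM under IL-1β against 16.7 and 6.00 CPM in control, which overlap, with a log2 change of 0.72 ± 1.44 (SE; adjusted p = 0.9997, edgeR). It was 1.67 without control 1 and 0.17 without control 2.

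Rptor, which encodes raptor, the scaffold that brings substrates to mTORC1, gave the most circles of the 7 genes, 25, in a gene of 297 kb. Its reads were spread: the leading circle, circRNA.2848 (chromosome 11, 119798769 to 119823021), held 27.2%, and 13.4% of hosts with at least 5 circles had a lower leading share. The circles met at common ends. The downstream end at 119823021 was used by 6 circles with 68.9% of the reads, and 11 of the 29 ends seen were used by more than 1 circle. No circle end lay within the first 68373 bp of the gene.

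Reads at that downstream end were 81 and 61 under IL-1β against 263 and 125 in control, or 89.0 and 62.5 CPM against 225 and 102 CPM. The groups did not overlap there, and control 1 was the highest. Other shared ends went the other way. The downstream end at 119857994, used by 4 circles, had 9.89 and 30.75 CPM under IL-1β against 5.99 and 4.91 CPM in control. Ends 119780602 and 119743867 also had both IL-1β libraries above both controls, and circRNA.2843 is counted in both. The remaining shared ends overlapped. Among tested circRNAs 16.4% had both IL-1β libraries above both controls and 17.2% had both below. That share was not taken over ends. The sums over ends were made after their reads were seen and were not tested. Of the circles closing at 119823021, circRNA.2848 had 30 and 23 reads under IL-1β against 127 and 29 in control, with control 1 alone high. Its log2 change was -1.23 ± 0.81 (SE; adjusted p = 0.886, edgeR) and 0.22 without control 1. CircRNA.2851 (119811945 to 119823021) overlapped between the groups, with 51 and 38 reads under IL-1β against 65 and 52 in control and a log2 change of -0.05 ± 0.53 (SE; adjusted p = 1.0, edgeR).

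Another circle closing at this end, circRNA.2844 (119756239 to 119823021, 66783 nt), had no reads under IL-1β (0 in both libraries) against 23 and 26 in control. By the control mean it was at least 6.43-fold lower with IL-1β against a floor of 3 reads per library (unadjusted 0.0439, adjusted p = 0.886, edgeR). CircRNA.2860 (119856267 to 119857994), toward the end of the gene, went the other way, with 9 and 14 reads under IL-1β against 0 in both controls. By the IL-1β mean it was at least 4.83-fold higher (adjusted p = 0.886, edgeR). CircRNA.2854 had 42 reads in control 1 and 0 elsewhere. It differs from circRNA.2851 by 4 nt at the upstream end, and with the pair summed, control 1 held 107 of 248 reads. Pairs of ends on the same side within 5 nt of each other were found in Rptor only among the 7 genes, at 3 places, each 4 nt apart. Just past that limit, circRNA.6851 and circRNA.6852 of Pik3r1 shared a downstream end and had upstream ends 6 nt apart.

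Whole-gene Rptor output was 169 and 132.5 CPM under IL-1β against 272.5 and 134 CPM in control, with means of 151 ± 25.9 CPM and 203.5 ± 97.6 CPM (SD, n = 2 each). The log2 change was -0.43 ± 0.40 (SE; adjusted p = 0.9997, edgeR), and 0.21 without control 1.

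Foxo1, a transcription factor that AKT inhibits and that drives autophagy and antioxidant genes, gave 2 circles and 42 reads. CircRNA.24833 (chromosome 3, 52345039 to 52346390, 1352 nt) had 23 and 14 reads under IL-1β against 0 in both controls. By the IL-1β mean it was at least 7.89-fold higher against a floor of 3 reads per library (unadjusted 0.0455, adjusted p = 0.886, edgeR). CircRNA.24832 (52301631 to 52303777) had 5 reads, all in control 2. Gene output was 25.1 and 14.2 CPM under IL-1β against 0 and 4.28 CPM in control, which do not overlap, with a log2 change of 3.13 ± 2.29 (SE; adjusted p = 0.935, edgeR). Both IL-1β libraries lay above both controls in 17.0% of tested hosts. Without control 2 the fitted log2 change was 7.35, with no control read left, and without control 1 it was 2.21.

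**Figure D2:**
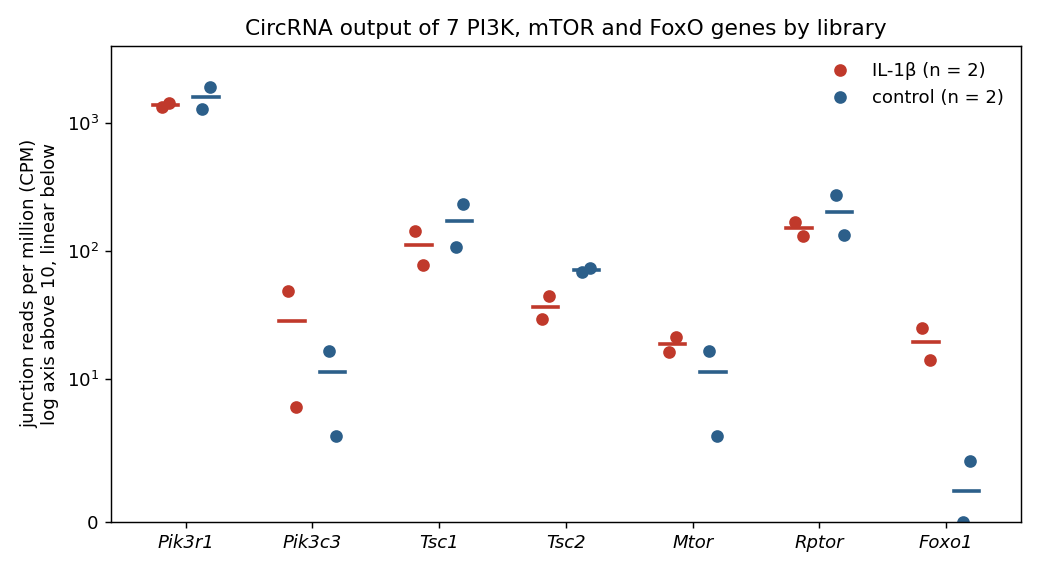
CircRNA output of each gene in each library, in CPM (log axis above 10, linear below); points are libraries, lines are group means, IL-1β left of control, n = 2 each. Pik3r1 lies far above the rest, the groups of Tsc2 and Foxo1 do not overlap, and those of the other 5 genes do.

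Set per length of gene, the order over the 4 libraries was Pik3r1 with 73.4 reads per kb of gene, Tsc1 with 12.2, Tsc2 with 6.51, Rptor with 2.59, Pik3c3 with 0.970, Mtor with 0.577 and Foxo1 with 0.514. The last 3 had 42 to 80 reads in all, and their libraries overlap in CPM, so their order is not resolved. Circles per 10 kb of gene followed another order, highest in Tsc2 at 3.26 and Tsc1 at 2.59 and lowest in Foxo1 at 0.245. Together the 7 genes took 0.182% and 0.174% of the junction reads under IL-1β against 0.178% and 0.230% in control. Pik3r1 held 6422 of their 8227 reads. Without it the shares were 0.04432% and 0.03009% under IL-1β against 0.04825% and 0.04444% in control, with IL-1β 2 the lowest.

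Across the 72 circles, presence changed from library to library. There were 28 read in each IL-1β library and 31 and 30 in the controls, but 47 (65.3%) were read in 1 library only and 9 in all 4. Over all 40909 circRNAs these shares were 58.6% and 16.8%, and 12.5% of the 72 were read in all 4. Reads in both IL-1β libraries and neither control were found for 5 of the 72 (6.94%, against 2.45% of all circRNAs listed), and the reverse for 2 (2.78%, against 2.72%). The median span between junction ends was 10160 nt, against 10570 nt for all circRNAs. Under 1 kb were 2 of the 72, the near-identical Pik3r1 circles circRNA.6851 and circRNA.6852.

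Of the 72 circles 20 had at least 20 reads over the libraries and were tested, from 6 genes; a circle that passes this filter through 1 group only had to differ, so the counts that follow describe these 20 and not all 72. None was called by edgeR (adjusted p under 0.05), where 0.0196% of the 15333 circRNAs tested did. At an unadjusted p under 0.05 there were 2, circRNA.2844 of Rptor and circRNA.24833 of Foxo1, 1 lower and 1 higher, against 3.44% of all tested (1.62% lower and 1.83% higher). DESeq2 gave an adjusted p for 11 of the 20 and called 0, where it called 1.08% of all circRNAs given one. At an unadjusted p under 0.05 DESeq2 had 3 of the 20, against 8.99% of all tested. The groups did not overlap in 8 of the 20, with IL-1β above in 4 and below in 4, where 16.4% and 17.2% of all tested circRNAs did so. Reads were 0 in both controls for 3 of the 20 (5.67% of all tested) and 0 in both IL-1β libraries for 3 (10.2% of all tested). The median log2 change was -0.19, against -0.05 over all tested circRNAs.

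**Figure D3:**
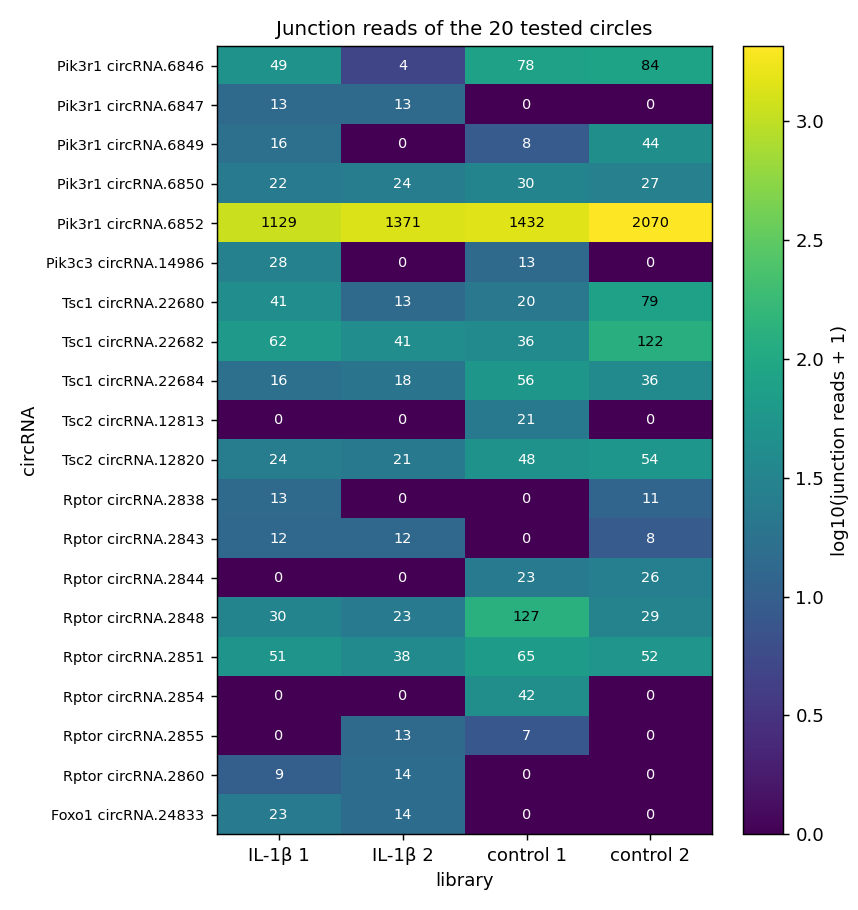
Junction reads of the 20 tested circles (rows) in the 4 libraries (columns), with the reads printed in each cell and the colour giving log10 of reads plus 1. Only 9 of the 20 rows have reads in every library, and circRNA.6852 of Pik3r1 has 1129 to 2070 reads, where the next highest value in any library is 127.

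At the level of genes, 0 of the 7 members passed an adjusted p of 0.05 in edgeR, and none had an unadjusted p under 0.05; DESeq2 also called 0. Over the 4879 hosts tested 0.0% passed and 4.55% had an unadjusted p under 0.05. The log2 change was negative in 4 members and positive in 3, with a median of -0.21 against -0.03 over all hosts.

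The rest of the pathway was read from a list of 84 other genes, of which 56 had circles and 41 were tested. None of the 41 passed an adjusted p of 0.05 in edgeR or in DESeq2, which gave an adjusted p for 35, and 2 had an unadjusted p under 0.05 in edgeR and 4 in DESeq2, against 4.55% and 10.8% of all hosts. DESeq2 called 1.11% of all hosts given an adjusted p. Log2 changes were positive in 19 and negative in 22 (13 and 28 when scaled by the depth behind SRPBM, the authors' depth-scaled signal, 21 and 20 by library totals), with a median of -0.03 against -0.03 over all hosts. No circle was listed for 28 of the genes, among them Akt1, the 5 Lamtor genes and Eif4ebp1, a translation repressor that mTORC1 phosphorylates.

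The counts by role that follow include the members. The 3 tested genes of the TSC complex with Rheb were the members Tsc1 and Tsc2, and Rheb itself. All had negative log2 changes (-0.95 to -0.06), but Rheb was at -0.06 ± 1.68 (SE) and Tsc1 at 0.03 without control 2. Changes were also negative in 2 of 3 tested mTORC1 subunits (-0.43 to 0.72). The same held for 2 of 3 tested mTORC2 subunits (1 of 3 by library totals and 3 of 3 by SRPBM depth). Negative changes made up 52.0% of all tested hosts. Amino acid sensing genes were divided, with 6 positive and 6 negative of 12. Energy sensing genes had 3 negative and 2 positive (4 and 1 by SRPBM depth), class I PI3K genes 2 of each (3 and 1 by SRPBM depth), and phosphatases 2 negative and 3 positive. Class II and III PI3K genes and partners had 3 negative and 4 positive (4 and 3 by SRPBM depth, 2 and 5 by library totals). The tested AKT arm gene, Pdpk1, was negative, and mTORC1 targets had 1 negative and 2 positive (3 and 0 by SRPBM depth). No insulin receptor substrate had enough reads for the test.

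The most read pathway genes outside the 7 did not pass the test. Pik3c2a, a class II PI3K, gave 921 and 922 CPM under IL-1β against 822.5 and 832 CPM in control, and its log2 change of 0.16 ± 0.19 (SE) turned to -0.05 with the SRPBM depth as scale. Pdpk1, the kinase that activates AKT, gave 563 and 692 CPM under IL-1β against 743 and 682 CPM in control. Prr5l, an mTORC2 partner, gave 641 and 666 CPM under IL-1β against 628.5 and 707 CPM in control. Rps6kb1, the S6 kinase that mTORC1 phosphorylates, gave 411 and 334 CPM under IL-1β against 433 and 289 CPM in control, with overlap. Adjusted p was 0.9997 for each of these in edgeR.

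Fnip2, a partner of folliculin in amino acid signalling to mTORC1, had an unadjusted p under 0.05, the only one of the 22 pathway genes with at least 200 reads to do so. It gave 708 and 616 CPM under IL-1β against 934.5 and 1009 CPM in control, 1.47-fold lower by the means. The log2 change of -0.55 ± 0.21 (SE) had an adjusted p of 0.882 in edgeR, and 0.0265 unadjusted. Rraga, a Rag GTPase that carries the amino acid signal, had 3 and 48 reads under IL-1β against 0 in control (unadjusted 0.0236, adjusted p = 0.882, edgeR), so nearly all its reads were in IL-1β 2.

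Foxo3, the other FoxO gene with a circle here, is known as the source of circ-Foxo3, a circRNA studied in several tissues. It had 1 circle, circRNA.949 (chromosome 10, 42196466 to 42197901), of 1436 nt, close in span to the 1352 nt of the Foxo1 circle. It gave 737 and 819 CPM under IL-1β against 640 and 978 CPM in control, with overlap and a log2 change of -0.06 ± 0.25 (SE; adjusted p = 0.9997, edgeR). The Foxo1 circle, at 25.3 and 14.4 CPM under IL-1β against 0 in control, was far less read.

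**Figure D4:**
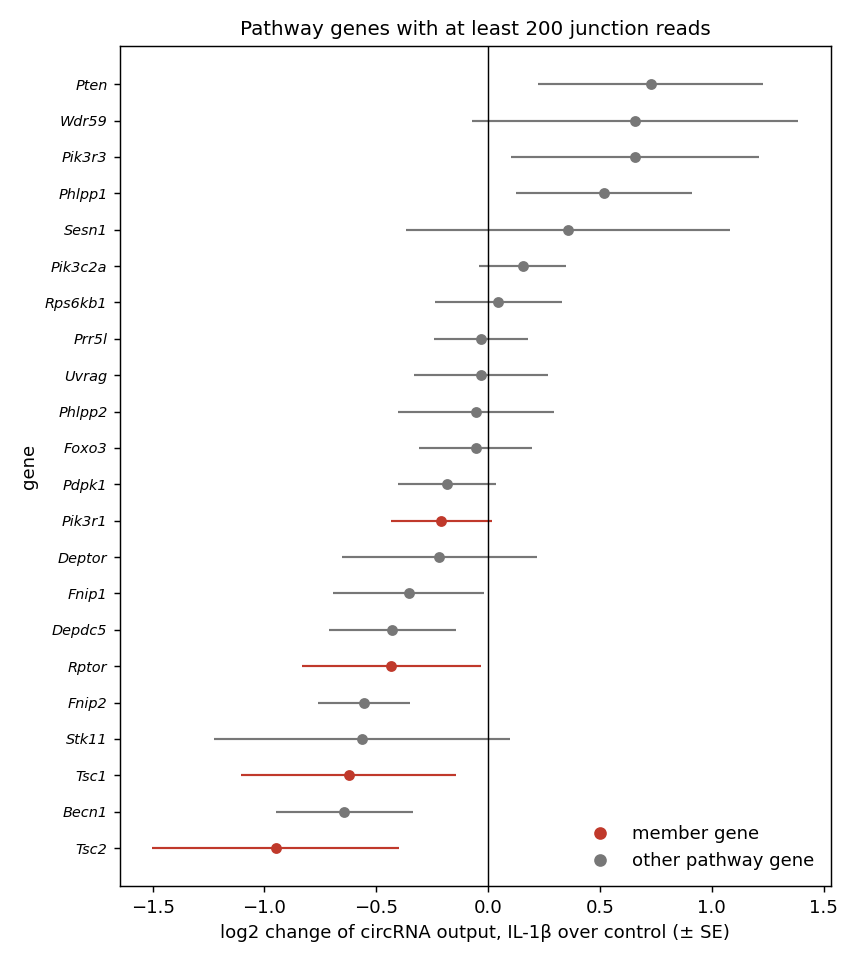
Log2 change of circRNA output, IL-1β over control, with its SE, for the 22 pathway genes with at least 200 reads over the 4 libraries; the 4 member genes among them are coloured. Values run from -0.95 for Tsc2 to 0.73, with 15 negative and 7 positive, and none passed an adjusted p of 0.05 in edgeR.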

How the data were processed

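RNA was depleted of ribosomal RNA and treated with RNase R before stranded library construction, per the labels' protocols. Per the submitters' processing notes, mm10 and Bowtie2 were used. The caller of circRNAs and its filters were not found in these sources. The deposited tables give a count of reads over each back-splice junction, and the authors also deposited SRPBM, a signal scaled by depth (per the file headers); it equalled the count divided by 11.9 and 13.4 in the IL-1β libraries and by 11.8 and 16.1 in the controls. Controls were taken from the source label, since all samples carry the same treatment text. The single-library tables held the values of the series table.

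Genes came from RefSeq on GRCm38.p6 (mm10). A circle's host was the 1 coding gene that held both its ends or, where no coding gene did, the 1 other gene. Counts were fitted over all circRNAs, and over all hosts, with at least 20 reads with the quasi-likelihood test of edgeR 4.0.16 (R 4.3.3; TMM factors, totals of all junction reads as library sizes, no covariate, Benjamini-Hochberg adjustment over all tested, threshold 0.05). Each SE was the size of the log2 change over the root of its F statistic. CPM uses the same factors, so a gene's summed CPM and its circles' CPM differ slightly in scale. Bounds for a group at 0 set the mean CPM of the other group over that of 3 reads per library, so a single library can lie below them. They reflect only counting error, and PCR copies are not independent molecules. On counts simulated with known 4-fold changes, the host fit called part of them and the circRNA fit, at the same filter, called none, so a circle that did not pass is not shown to be equal between the groups. DESeq2 1.42.0 and the settings under sensitivity were alternatives; Python 3.11.15 was used for the rest.

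Members and lists were chosen with earlier results of these data known. The circles named are the 3 most read of each gene, those with an unadjusted p under 0.05 and tested ones with 0 reads in a whole group; the pathway genes named are the 6 most read and those with such a p; 1 gene of the list is not reported here and is left out of its counts. CircRNA.6849, sums over ends, the values of Rheb, genes named for having no circle and the near-identical pairs were added after their values were seen.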

Additional observations from a re-analysis of the deposited data

How the results depend on the processing

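Leaving out 1 library in turn gave 0 to 4 circRNAs and 0 to 2 hosts past the adjusted threshold, where all libraries gave 3 and 0. It was 0 and 1 without IL-1β 1, 0 and 0 without IL-1β 2, 4 and 2 without control 1, and 1 and 1 without control 2; the library left alone in its group is then assumed to vary like the other group. DESeq2 called 101 circRNAs and 47 hosts. With a minimum of 1 read edgeR called 61 and 12, and with the replicate number as a block 61 and 20; with a minimum of 50 reads, or with near junctions summed, it called 0 circRNAs. The cause of these shifts was not tested. No circle or gene of the 7, and no other pathway gene, was called under any of these settings. Same-numbered libraries deviated together with a correlation of 0.03 over 2209 hosts of at least 200 reads, so no pairing is taken from the number. DESeq2 gave no adjusted p for 9 of the 20 tested circles, and features under the minimum in a smaller set have no value.

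With SRPBM depth as scale the median log2 change was -0.24 over hosts and -0.28 over circRNAs, so changes under it are to be read against those medians. Signs that turned under other scalings were circRNA.6850 (-0.21), Pik3c2a (-0.051) and Rps6kb1 (-0.20) with SRPBM depth, and Prr5l (0.016) with library totals. With 1 library left out, log2 changes crossed 0 for circRNA.6850 (-0.074 to 0.11), circRNA.6852 (-0.39 to 0.11), circRNA.22680 (-1.64 to 0.76), circRNA.22682 (-0.89 to 0.83), circRNA.2848 (-1.94 to 0.22) and circRNA.2851 (-0.35 to 0.17). Among genes they did so for Pik3r1 (-0.42 to 0.10), Pik3c3 (-0.48 to 2.28), Tsc1 (-1.13 to 0.028), Rptor (-0.85 to 0.21), Rps6kb1 (-0.22 to 0.41), Foxo3 (-0.29 to 0.28) and Prr5l (-0.073 to 0.057). Which Rptor circle led also depended on near junctions. As deposited it was circRNA.2848, with 18.5% of Rptor reads under IL-1β and 32.3% in control. With near junctions summed it was circRNA.2851, with 31.1% under IL-1β and 32.9% in control.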
